A study of Homo sapiens with 18 samples.

Results

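The genes described here are 10 genes of the osteoblast lineage and of bone matrix: RUNX2, SP7, DLX5, MSX2, ALPL, BGLAP, SPP1, IBSP, SPARC and POSTN. They were taken by gene name from a table of 50119 genes, and each of the 10 names was found there. The values are FPKM, read fragments scaled by transcript length and library depth, and estimated counts from RNA sequencing of 18 libraries, 3 in each of 6 groups. The cells were osteosarcoma (OS) Saos-2 cells, spelled Soas-2 in the sample labels and given there as wild type in every group, a human line that textbooks describe as osteoblast-like and rich in alkaline phosphatase. The question was which parts of the osteoblast program these cells expressed or lacked in each culture and in the tumor.

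D-2 was the line grown as a 2D layer, and D-3 was the line embedded in Matrigel. DP-3 was the line printed in a bioink of methacrylated gelatin and alginate, taken after 14 days of culture, and DP-3 day 1 was the same construct after 1 day. FIT was fresh tumor from female BALB/c nude mice, 4 weeks old at injection, which carried the line with Matrigel under the skin of the axilla until week 2, and it was not cultured. IT was pieces of such tumors kept on Matrigel in culture, and D-2, D-3 and IT were also taken after 14 days. By the labels, all 18 libraries come from 1 line. IT and FIT also contain cells of the mouse host, and the methods say that excised tumors were divided between IT and FIT, without tying a library of one to a library of the other. Whether reads of mouse cells were counted under human gene names in IT and FIT was not tested. The labels do not say that the 3 replicates of a group are separate cultures or animals, so the p-values below measure the spread between these samples, which may be technical.

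Osteoblasts arise when the transcription factor RUNX2 and then SP7 (osterix) switch on the bone program. Homeodomain factors of the DLX and MSX families act beside them. Mature cells secrete collagen I and mineral-binding proteins, and the enzyme encoded by ALPL, tissue-nonspecific alkaline phosphatase, frees phosphate for mineral. BGLAP (osteocalcin) and IBSP (bone sialoprotein) are late markers, while SPP1 (osteopontin), SPARC (osteonectin) and POSTN (periostin) are also made by many other tissues.

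The promoter stretches of 3 members are shown because their genes behaved differently in these cells: IBSP and SPP1 lie near each other on chromosome 4, where one was almost unread and the other varied, and POSTN was called higher at day 14 than at day 1 in the printed tissue. They come from RefSeq on GRCh38.p14, run 5′ to 3′ on the strand of the gene and start 250 bases before the RefSeq start. The IBSP stretch stops at the base before the RefSeq start, and those of SPP1 and POSTN stop at the base before the first exon of the gene in GENCODE 29. Capitals mark AACCACA, the core letters bound by RUNX proteins, and TATAAA, the letters of a TATA box, each searched on both strands, and the marked stretches do not overlap. The IBSP stretch is chr4:87799304-87799553 on the plus strand, the SPP1 stretch is chr4:87975464-87975649 on the plus strand, and the POSTN stretch is chr13:37598845-37599018 on the minus strand.
IBSP: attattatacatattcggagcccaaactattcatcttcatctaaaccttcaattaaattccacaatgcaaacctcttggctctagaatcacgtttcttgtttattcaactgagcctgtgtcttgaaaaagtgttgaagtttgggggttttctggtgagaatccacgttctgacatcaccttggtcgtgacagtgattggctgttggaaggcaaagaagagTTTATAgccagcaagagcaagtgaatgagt
SPP1: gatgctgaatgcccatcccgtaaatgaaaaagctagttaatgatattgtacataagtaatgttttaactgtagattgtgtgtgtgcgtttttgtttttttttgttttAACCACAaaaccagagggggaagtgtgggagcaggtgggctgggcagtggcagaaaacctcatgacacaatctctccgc
POSTN: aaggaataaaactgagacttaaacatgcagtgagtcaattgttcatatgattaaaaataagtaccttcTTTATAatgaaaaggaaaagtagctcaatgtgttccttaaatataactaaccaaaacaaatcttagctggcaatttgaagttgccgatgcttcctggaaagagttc

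RefSeq windows of 250 bases before a start were found for 8 of the 10 members, in 11 windows; DLX5 and SP7 had no entry. AACCACA or its reverse complement was found in windows of BGLAP, SPP1 and RUNX2, in SPP1 from base 143 to base 137 before the start, and in 3.65% of 35116 windows of all genes. TATAAA or its reverse complement was found in windows of BGLAP, IBSP, POSTN and ALPL, and in 10.7% of all windows. In IBSP it lay from base 30 to base 25 before the start, and in POSTN the marked match lay from base 182 to base 177 and another, beyond the printed stretch, from base 29 to base 24. The homeodomain letters TAATTA were found only in the MSX2 window among the members, and in 4.35% of all windows. The window of SPARC, the member with the highest level, had none of the 3 motifs. These matches are a description of letters and do not show binding.

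The deposited positions of the members fit GRCh38: all 10 overlap the GENCODE 29 gene of the same name, and SP7, SPP1 and POSTN have the same ends. SPP1 spans chromosome 4 from 87975650 to 87983426 and IBSP from 87799554 to 87812435, both on the plus strand. POSTN spans chromosome 13 from 37562583 to 37598844 on the minus strand, SP7 spans chromosome 12 from 53326575 to 53345315 on the minus strand, and DLX5 spans chromosome 7 from 97020396 to 97024831 on the minus strand.

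Library totals ran from 50327345 to 79082786 estimated counts in 17 libraries, and FIT replicate 3 had 23721666. About 4 estimated counts were taken to stand for 1 read pair, so 12 estimated counts, or 3 read pairs, is the level at or under which a library is called near its detection limit here. The most common count above 0 was 4, but only 35.0% of the counts from 1 to 40 were multiples of 4. The factor is thus approximate, and the read pairs and counting intervals below rest on it. The 3 libraries of DP-3 day 1 listed 34593 to 34919 genes above 0, against at most 29631 in any other library. They shared 621 genes that were above 0 in all 3 of them and at 0 in the other 15 libraries, where the other groups had 0 to 12 such genes of their own. Fewer cells of a type and less RNA per cell cannot be told apart in these bulk samples.

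The program was read in part. SPARC was at a mean of at least 1 FPKM in all 6 groups, 5 members (RUNX2, DLX5, BGLAP, SPP1 and POSTN) were between the limits, and 4 members (SP7, MSX2, ALPL and IBSP) had a mean under 0.1 FPKM in each group. By the same measures, 42.3% of all 50119 genes had a mean under 0.1 FPKM in each group and 21.2% had a mean of at least 1 FPKM in all 6, so 4 of 10 members under 0.1 is a share near that of all genes. ALPL, SP7 and IBSP, which are among the genes that usually define osteoblasts, had group means of at most 0.0881, 0.0331 and 0.0399 FPKM. The line is known as osteoblast-like, and these 3 levels go against that description. Other defining genes were read. RUNX2 was above 12 estimated counts in all 18 libraries, and COL1A1 and COL1A2 were at 1 FPKM or more in all 18. BGLAP, also a defining gene, was above 12 estimated counts in 7. Whether the libraries hold the labelled line was not tested. The term osteoblast program is used below for the list of genes and not for a state of the cells.

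**Figure D1:**
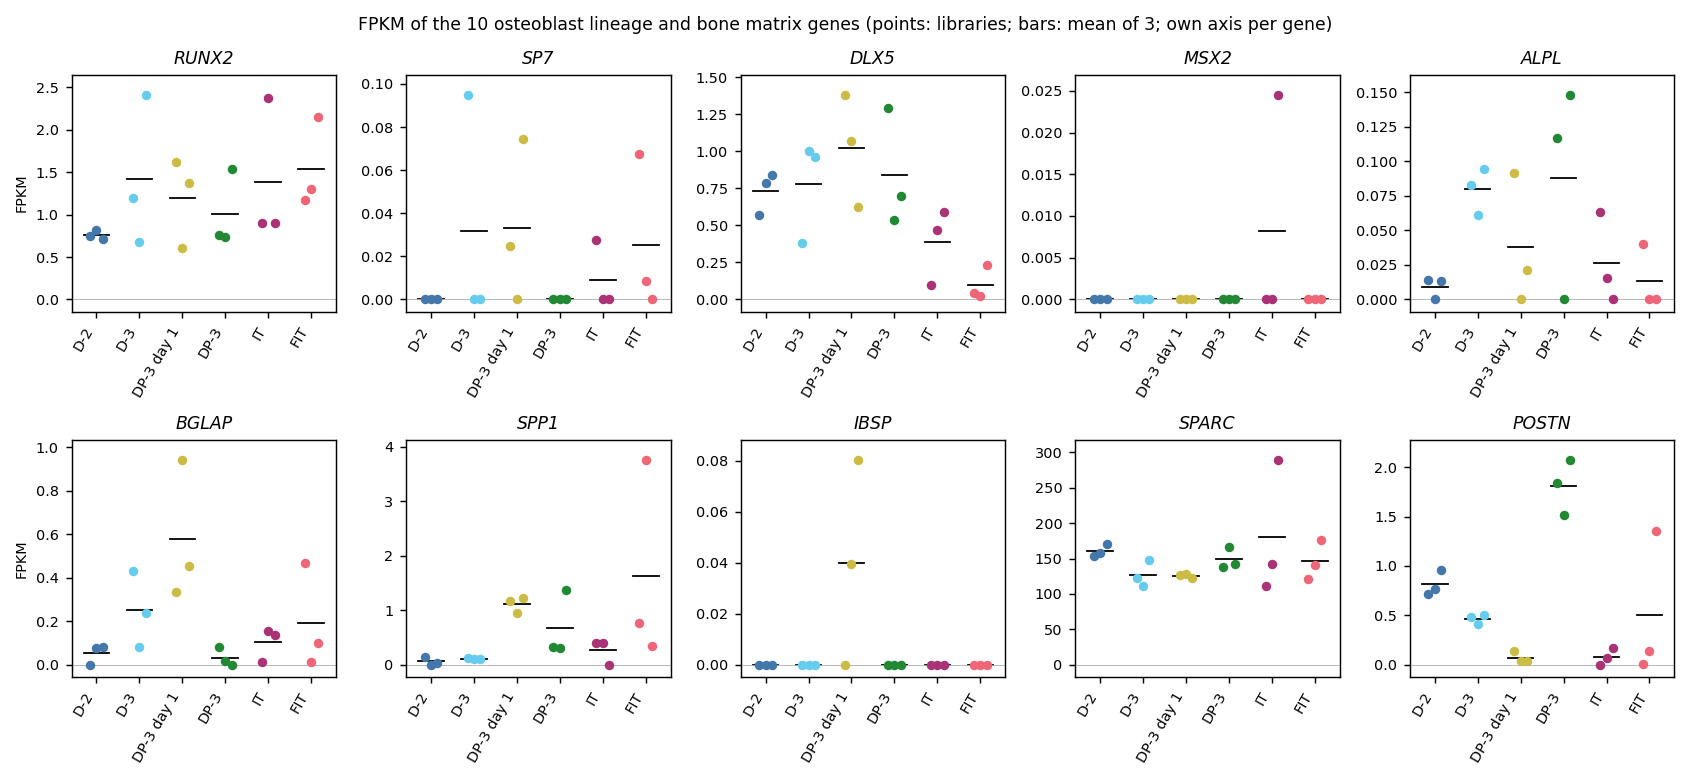
FPKM of each member in the 18 libraries, 1 panel per gene, with groups along the horizontal axis, points for libraries and bars for the mean of 3. Each panel has its own axis from 0: SPARC reaches 289 FPKM, while SP7, MSX2 and IBSP stay under 0.1 FPKM.

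RUNX2, the master regulator of the osteoblast lineage, was read at a low level in all 18 libraries. Its FPKM was 0.752, 0.815 and 0.713 in D-2, 1.19, 0.672 and 2.41 in D-3, and 1.62, 0.61 and 1.37 in DP-3 day 1. It was 0.76, 0.732 and 1.54 in DP-3, 0.904, 2.38 and 0.902 in IT, and 1.17, 1.3 and 2.15 in FIT. The group means ran from 0.76 ± 0.0512 (SD, n = 3) in D-2 to 1.54 ± 0.532 (SD, n = 3) in FIT, and every pair of neighbours in the order FIT, D-3, IT, DP-3 day 1, DP-3, D-2 overlapped. A test of any difference among the 6 groups did not call it (adjusted p = 0.693, edgeR quasi-likelihood F test). D-2 alone lay below FIT in every library, 1.81-fold in the fit, with an adjusted p of 0.041, which is under the 2-fold limit and was not called.

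SP7, the zinc finger factor that acts after RUNX2 and is needed for bone formation, was listed at 0 in 12 of 18 libraries. Its highest FPKM was 0.0949, in D-3 replicate 1, and DP-3 day 1 had 0.0247, 0 and 0.0745. In D-2 and DP-3 all 3 libraries were at 0, and a level too low to give a read at this depth cannot be told from none there. SP7 did not pass the filter on low values in any comparison and was not tested.

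DLX5, a homeodomain factor that lies upstream of SP7 in osteoblasts, was read in cultured cells and nearly unread in the tumor. Its FPKM was 0.568, 0.784 and 0.839 in D-2, 0.378, 1.0 and 0.962 in D-3, 1.38, 1.07 and 0.626 in DP-3 day 1, and 1.29, 0.538 and 0.695 in DP-3. IT had 0.096, 0.468 and 0.591, and FIT had 0.0411, 0.0243 and 0.231. The libraries of D-3, D-2 and both times of printed tissue all lay above the FIT libraries, while IT overlapped with FIT and with D-2. The 3 FIT libraries held 6, 4 and 12 estimated counts, each at or under the limit. In read pairs, D-2 was 9.93 times FIT with a counting interval of 4.38 to 27.8 (95%, exact), D-3 was 10.9 times (4.8 to 30.6), DP-3 was 11.3 times (4.98 to 31.5) and IT was 5.12 times (2.15 to 14.8). These intervals cover counting error only.

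DLX6, the neighbour of DLX5 on chromosome 7, ran from a mean of 1.07 ± 0.0849 FPKM in D-2 to 0.378 ± 0.372 in FIT (SD, n = 3). FIT replicates 1 and 2 were at 0.163 FPKM of DLX6 and replicate 3, the shallow library, at 0.808. DLX6 was called in none of the comparisons by edgeR (adjusted p = 0.198 over the 6 groups and 0.0847 in D-2 against FIT, with unadjusted p of 0.118 and 0.0324). FIT replicate 3 was also the highest FIT library for DLX5.

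MSX2, a homeodomain factor of early skeletal cells, was listed at 0 in 17 of 18 libraries, and IT replicate 3 was at 0.0245 FPKM. Its relative MSX1 was read in all 18 libraries, at 14.1 to 51.1 FPKM. Both genes are measured per length here, so the difference between them is one of level. MSX1 averaged 42.3 ± 3.03 FPKM in DP-3, 42.2 ± 4.49 in FIT, 31.4 ± 0.977 in D-2 and 19.3 ± 6.48 in D-3 (SD, n = 3 each), and was lower in D-3 than in FIT (log2 fold change -1.19, SE 0.238, adjusted p = 0.0236, edgeR). That call was kept in 1 of 6 fits that left out 1 library, the fit without D-3 replicate 2. MSX2 was not detectable at this depth in 17 libraries.

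**Figure D2:**
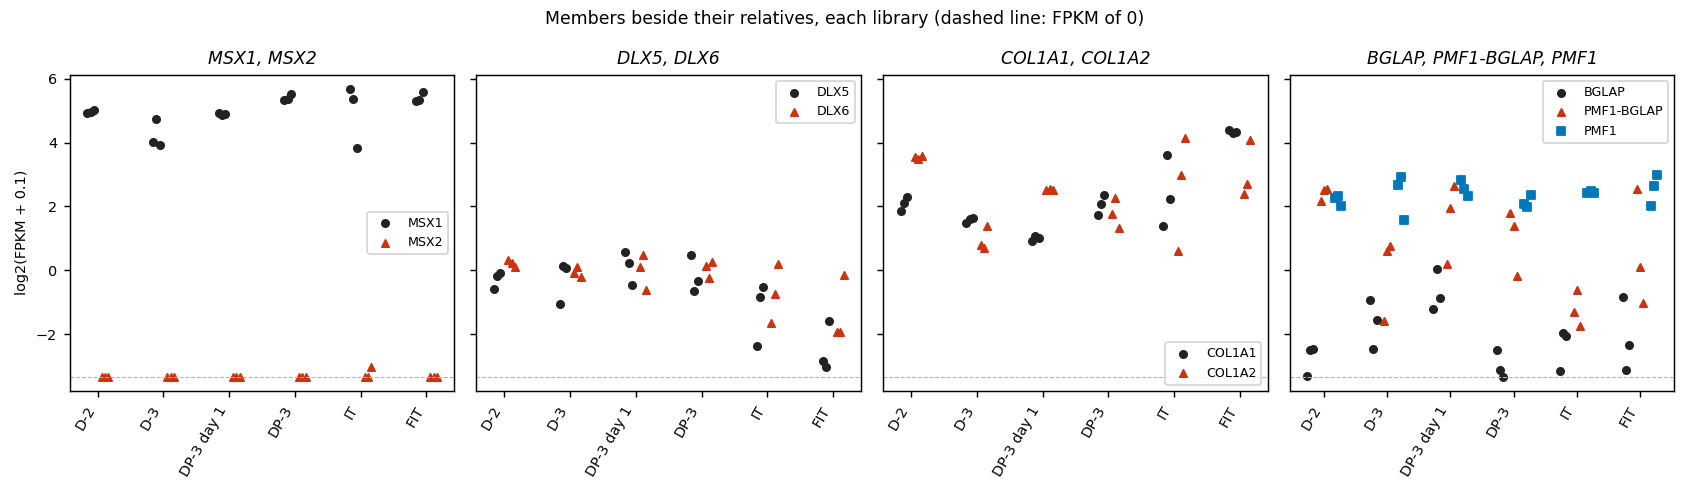
Members beside their relatives, as log2(FPKM + 0.1) in each library, with groups along the horizontal axis and a dashed line at an FPKM of 0. MSX1 sits at 14.1 to 51.1 FPKM while MSX2 is at 0 in 17 of 18 libraries, and DLX5 and DLX6 are both lowest on average in FIT.

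ALPL was low in every library. Its FPKM was at most 0.148, in DP-3 replicate 3. It was 0 FPKM in 6 libraries, and it was at or under 12 estimated counts in 11 of 18 and above that in 7, among them all of D-3. The group means ran from 0.00909 ± 0.0079 FPKM in D-2 to 0.0881 ± 0.0779 in DP-3 (SD, n = 3), and D-3 was the one group in which all 3 libraries had a similar level, 0.0831, 0.0613 and 0.0947. ALPL passed the filter in no comparison. PHOSPHO1, a phosphatase that acts inside matrix vesicles, was read at a mean of 1.08 FPKM (0.537 to 1.71 over 18 libraries). ALPL and PHOSPHO1 thus differed in level.

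BGLAP was low and uncertain. Its FPKM was 0.335, 0.941 and 0.456 in DP-3 day 1, and 0.0798, 0.016 and 0.000152 in DP-3. D-3 had 0.431, 0.0816 and 0.238, FIT had 0.466, 0.0143 and 0.0991, IT had 0.0127, 0.156 and 0.139, and D-2 had 0.000538, 0.0763 and 0.0839. In 11 of 18 libraries it was at or under 12 estimated counts. The read-through gene PMF1-BGLAP shares 398 of the 1190 exon bases of BGLAP, 33.4%, and was itself read at a mean of 2.49 FPKM, from 0.202 to 6.12, so reads of the shared part may have been split between the 2 genes. A BGLAP value can thus contain, or lack, reads of PMF1-BGLAP.

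SPP1, which binds mineral and cell surface integrins, varied widely from library to library. Its FPKM was 0.145, 0 and 0.0342 in D-2 and 0.117, 0.0997 and 0.114 in D-3. It was 1.16, 0.948 and 1.22 in DP-3 day 1, 0.324, 0.312 and 1.37 in DP-3, 0.397, 0.404 and 0 in IT, and 0.763, 3.75 and 0.342 in FIT. The FIT mean of 1.62 ± 1.86 FPKM (SD, n = 3) rests on FIT replicate 2, the highest library of all 18. D-2 and D-3 were lower than every FIT library, and DP-3, IT and DP-3 day 1 overlapped with FIT.

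IBSP, a marker of mineralizing osteoblasts, was at 0 in 16 of 18 libraries. DP-3 day 1 replicate 2 had 0.0396 FPKM (4 estimated counts) and replicate 3 had 0.0802 (8 estimated counts), both in the group whose libraries listed the most genes. The other 16 libraries had no count, and IBSP was not tested.

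SPARC, the collagen-binding glycoprotein that osteoblasts and many stromal cells make, was the member with the highest level, with a mean of 148 FPKM that ranked 170 among 50119 genes. Its FPKM was 154, 158 and 171 in D-2, 122, 112 and 148 in D-3, 127, 128 and 122 in DP-3 day 1, and 138, 166 and 143 in DP-3. It was 111, 143 and 289 in IT and 121, 141 and 176 in FIT. The range over the 18 libraries was 111 to 289 FPKM and IT replicate 3 stood apart as the highest. A test over the 6 groups gave an adjusted p of 0.138. The gene CLMAT3 overlaps SPARC exons on the other strand, in 381 of 4831 bases, and was read at 0.0686 FPKM on average.

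POSTN, a matricellular protein of periosteum and stroma, was highest in printed tissue at day 14. Its FPKM was 1.84, 1.52 and 2.07 in DP-3, against 0.143, 0.0342 and 0.0392 in DP-3 day 1. It was 0.72, 0.768 and 0.964 in D-2, 0.485, 0.41 and 0.502 in D-3, 0, 0.0687 and 0.167 in IT, and 0.00846, 0.137 and 1.35 in FIT. FIT replicate 3, the shallow library, was far above the other 2 FIT libraries. The order of means was DP-3, D-2, FIT, D-3, IT, DP-3 day 1, and DP-3 stood apart from D-2, its neighbour, as D-3 did from IT.

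The 6 groups were compared at once and in 6 pairs, with edgeR on the estimated counts. A gene was tested where at least 3 libraries had an FPKM of at least 0.1, and was called where the Benjamini-Hochberg adjusted p over all genes tested was below 0.05 and the fold change at least 2. Overlap between groups was read from FPKM, while fold changes and calls came from the scaled counts, and these scales can differ. In DP-3 against DP-3 day 1, LOX was lower in every DP-3 library by FPKM (means of 18.4 and 23.2). Its log2 fold change in the fit was -0.06. A rank or permutation test of 3 against 3 libraries cannot go below a two-sided p of 0.1, so single members were judged in the fit over all genes. Over the 6 groups, 6 members were tested (RUNX2, DLX5, BGLAP, SPP1, SPARC and POSTN) and 3 were called, POSTN (adjusted p = 0.0187), DLX5 (adjusted p = 0.029) and SPP1 (adjusted p = 0.0375), in a table where 23.8% of all 25977 genes tested were called. The fold between the highest and the lowest group of the fit was 29.5 for POSTN, 23.2 for SPP1 and 10.3 for DLX5. The members not called had adjusted p of 0.113 (BGLAP), 0.138 (SPARC) and 0.693 (RUNX2). POSTN was called in all 18 fits that left out 1 library, DLX5 in 16 of 18 and SPP1 in 9 of 18. The DLX5 call was lost without FIT replicate 1 (adjusted p = 0.108) or FIT replicate 2 (adjusted p = 0.0977).

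D-2 against FIT asked how the 2D layer differs from the tumor. Here 5 members were tested and 2 were called, where 14.6% of all 19513 genes tested were called, and 3 members did not overlap between the groups, as 49.9% of all genes tested did not. DLX5 was higher in D-2 (log2 fold change 3.15, SE 0.809, adjusted p = 0.0247), and 3.83% of all genes were called higher. SPP1 was lower in D-2 (log2 fold change -4.56, SE 1.374, adjusted p = 0.0424), and 10.8% of all genes were called lower. In read pairs SPP1 in FIT was 31.8 times D-2, with a counting interval of 16.9 to 67.2 (95%, exact). RUNX2 had a log2 fold change of -0.86 (SE 0.256), SPARC one of 0.30 (SE 0.15, adjusted p = 0.173) and POSTN one of 0.92 (SE 1.242, adjusted p = 0.609). DLX5 stayed called in 1 of 6 fits that left out 1 library, without FIT replicate 3 (adjusted p = 0.00223), and the other 5 gave adjusted p from 0.0544 to 0.076. SPP1 stayed called in 2 of 6, and without FIT replicate 2 its log2 fold change was -3.01 (adjusted p = 0.143). Without FIT replicate 1, RUNX2 was called (log2 fold change -1.07, adjusted p = 0.0282), and without FIT replicate 3, POSTN was called (log2 fold change 3.54, adjusted p = 0.0334).

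D-3 against FIT asked the same of cells in Matrigel. Of 6 members tested, 1 was called, SPP1, where 6.45% of all 21676 genes tested were called, and 2 members (SPP1 and DLX5) did not overlap between the groups, as 32.4% of all genes tested did not. SPP1 was lower in D-3 (log2 fold change -3.91, SE 0.902, adjusted p = 0.0373), and 2.17% of all genes were called lower. It stayed called in 1 of the 6 fits that left out 1 library, and without FIT replicate 2 its adjusted p was 0.0963. DLX5 lay higher in every D-3 library, with a log2 fold change of 3.02 (SE 0.889, adjusted p = 0.0747) that was not called, where 4.29% of all genes were called higher, and without FIT replicate 3 it was called (adjusted p = 0.0196). DESeq2 (adjusted p = 0.00645), the fit of all 18 libraries (adjusted p = 0.0149) and limma on log2(FPKM + 0.1) (adjusted p = 0.0457) also called it. RUNX2, SPARC, BGLAP and POSTN had log2 fold changes of -0.17, -0.25, 0.27 and -0.10, with adjusted p from 0.462 to 0.972. The signs of RUNX2, BGLAP and POSTN turned when FIT replicate 3 was left out, to 0.11, -0.00 and 2.52.

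DP-3 against FIT set printed tissue against the tumor. No member was called among the 5 tested by edgeR, where 4.82% of all 20039 genes tested were called, 1.66% higher and 3.16% lower. DLX5 and POSTN were the 2 members that did not overlap between the groups, as 34.1% of all genes tested did not. DLX5 had a log2 fold change of 3.30 (SE 0.861, unadjusted p = 0.00495, adjusted p = 0.0533), and DESeq2 called it (adjusted p = 0.00118), as did the fit of all 18 libraries (adjusted p = 0.00897). At an unadjusted p below 0.05, DLX5 was the 1 member of 5, where 27.6% of all genes tested were below it. POSTN lay higher in every DP-3 library (log2 fold change 2.03, SE 1.209, adjusted p = 0.321), and without FIT replicate 3 it was called (adjusted p = 0.0269). SPP1 had a log2 fold change of -1.16 (SE 0.945, adjusted p = 0.468), which turned to 0.42 without FIT replicate 2. These comparisons use the same 3 FIT libraries, so the DLX5 values of the cultures are not independent.

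IT against FIT set cultured tumor pieces against fresh tumor. No gene of the 21183 tested was called by edgeR (0.0%), 2693 had an unadjusted p below 0.05, the smallest adjusted p was 0.0902, and DESeq2 called 661. In 20.6% of all genes tested the groups did not overlap, and each of the 6 members tested overlapped. Of the 6 members tested, none was called by edgeR or DESeq2 and none had an unadjusted p below 0.05. The largest differences were SPP1 (log2 fold change -2.63, SE 1.373, adjusted p = 0.482), POSTN (-2.61, SE 1.742, adjusted p = 0.595) and DLX5 (2.01, SE 1.037, adjusted p = 0.476). SPARC had a log2 fold change of 0.32 (SE 0.364), which turned to -0.21 without IT replicate 3.

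DP-3 against DP-3 day 1 followed printed tissue from day 1 to day 14. Of 6 members tested, 2 were called, POSTN and BGLAP, where 7.56% of all 20774 genes tested were called, and 3 members did not overlap between the groups, as 45.2% of all genes tested did not. POSTN rose from 0.0722 ± 0.0615 to 1.81 ± 0.276 FPKM (SD, n = 3), with a log2 fold change of 4.88 (SE 0.56, adjusted p = 0.00272), and 1.81% of all genes were called higher. In read pairs that was 612 against 18, a ratio of 24.7 with a counting interval of 15.5 to 41.9 (95%, exact). POSTN was called in all 6 fits that left out 1 library and under all 8 other settings, with adjusted p of at most 0.0196.

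The other call, BGLAP, was lower at day 14 (log2 fold change -3.55, SE 0.824, adjusted p = 0.0232), and 5.76% of all genes were called lower. It passed the filter on low values through DP-3 day 1 alone, the group where it is high, so its count among the called members is no support for a change, and the 3 DP-3 libraries held 7, 2 and 1 estimated counts. In the fit of all genes without a filter its adjusted p was 0.0402. In read pairs DP-3 day 1 was 17.9 times DP-3, with a counting interval of 4.49 to 156 (95%, exact). Without a library of DP-3 day 1 it was not tested, without DP-3 replicate 2 its adjusted p was 0.0597, and it was called without DP-3 replicate 1 or 3. The DP-3 day 1 libraries also listed the most genes, and SP7 and IBSP had their highest group means there; the part of that in the BGLAP result was not tested. SPARC was higher in every DP-3 library by 1.42-fold (log2 fold change 0.51, SE 0.095, adjusted p = 0.0115), under the 2-fold limit. That adjusted p depended on the fit. It was 7.52e-05 with DESeq2, 0.202 in the fit of all 18 libraries and 0.149 with limma on log2(FPKM + 0.1), where the log2 fold change was 0.24. RUNX2, DLX5 and SPP1 had log2 fold changes of 0.04, -0.02 and -0.43, with adjusted p from 0.657 to 0.975. Without DP-3 replicate 3, SPP1 was called lower (log2 fold change -1.54, adjusted p = 0.0138).

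D-3 against D-2 compared the 2 cultures without a bioink. Of 5 members tested, 1 was called, POSTN, where 18.5% of all 20231 genes tested were called, and 2 members did not overlap between the groups, as 53.2% of all genes tested did not. POSTN was lower in D-3 (log2 fold change -1.06, SE 0.234, adjusted p = 0.0131), close to the 2-fold limit, and 3.95% of all genes were called lower. The POSTN call was lost without D-2 replicate 3 (adjusted p = 0.0526) and without D-3 replicate 2 (log2 fold change -0.95). It was also lost in the fit of all 18 libraries (adjusted p = 0.488). The limma fits of FPKM did not call POSTN either, as its change there was under 2-fold. Its log2 fold change was -0.69 with the pseudocount of 0.1 (adjusted p = 0.0461) and -0.31 with that of 1 (adjusted p = 0.0416). The mean FPKM of POSTN, 0.465 in D-3 and 0.817 in D-2, also differed by less than 2-fold. SPARC was 1.51-fold lower in D-3 (log2 fold change -0.59, SE 0.128, adjusted p = 0.0124), under the limit. Here too the adjusted p depended on the fit. It was 0.00074 with DESeq2, 0.0899 in the fit of all 18 libraries and 0.0723 with limma on log2(FPKM + 0.1), where the log2 fold change was -0.35. RUNX2 had a log2 fold change of 0.65 (SE 0.42, adjusted p = 0.265), and without D-3 replicate 2 it was called (1.02, adjusted p = 0.0382). DLX5 and SPP1 had log2 fold changes of -0.15 and 0.62, with adjusted p of 0.815 and 0.705.

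**Figure D3:**
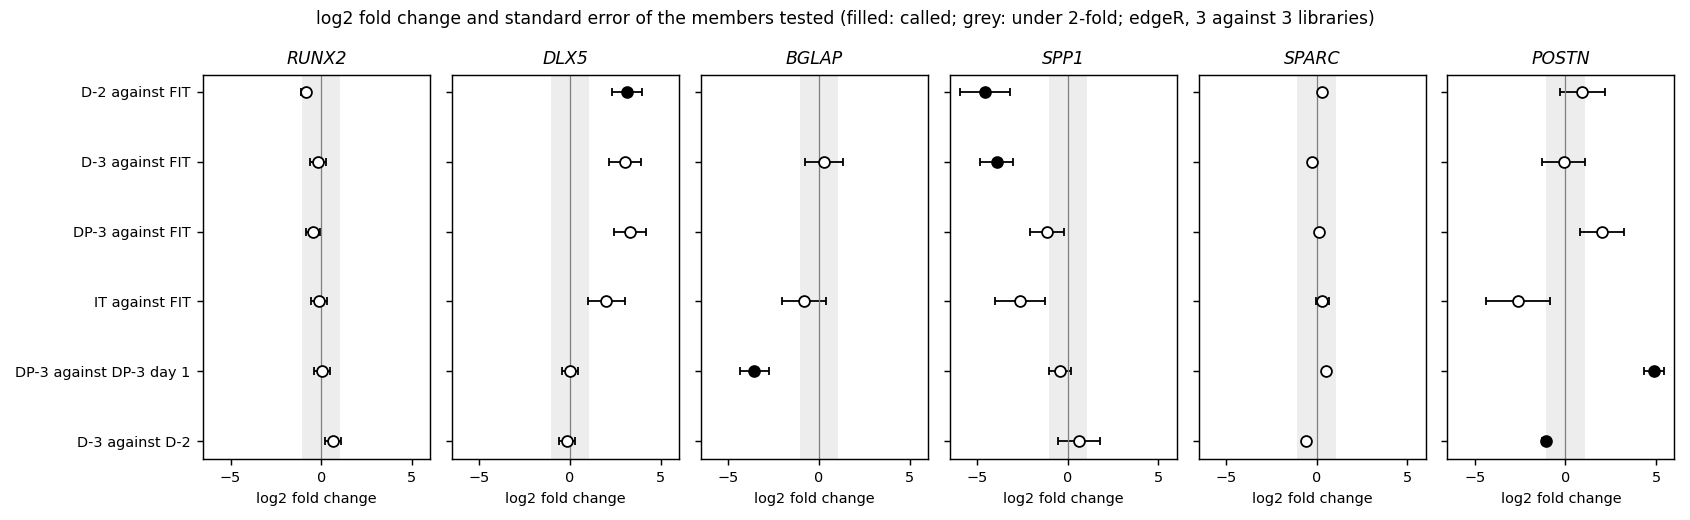
Log2 fold change with standard error of the 6 members tested, 1 panel per gene and 1 row per comparison, each of 3 against 3 libraries, with filled points for called genes and grey for changes under 2-fold. POSTN is called higher in DP-3 than in DP-3 day 1 at 4.88, SPP1 is called lower in D-2 and D-3 than in FIT at -4.56 and -3.91, and SPARC stays within the grey in all 6 comparisons.

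Other genes of the program were counted in 6 lists. Collagen I and the enzymes that fold and cut it were read throughout, with all 12 genes of that list at a mean of at least 1 FPKM in all 6 groups. Of 11 other osteoblast transcription factors, 6 reached that level (MSX1, CBFB, ATF4, TWIST1, SOX4 and FOSL1). Of 10 genes of mineral and phosphate handling, 6 did, and of 13 bone matrix proteins, 5 did (BGN, TNC, CTHRC1, FN1 and THBS1), while OMD, OGN and DCN were under 0.1 in each group. Of 8 osteocyte genes, 1 did, FAM20C, and 4 were under 0.1 in each group (DMP1, MEPE, FGF23 and DSPP); SOST, which encodes sclerostin, was under 0.1 except for a mean of 0.108 in DP-3 day 1. Of 12 receptors and signals, 7 did, and PTH1R, the parathyroid hormone receptor, TNFSF11, which encodes RANKL, and FGFR2 were under 0.1.

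**Figure D4:**
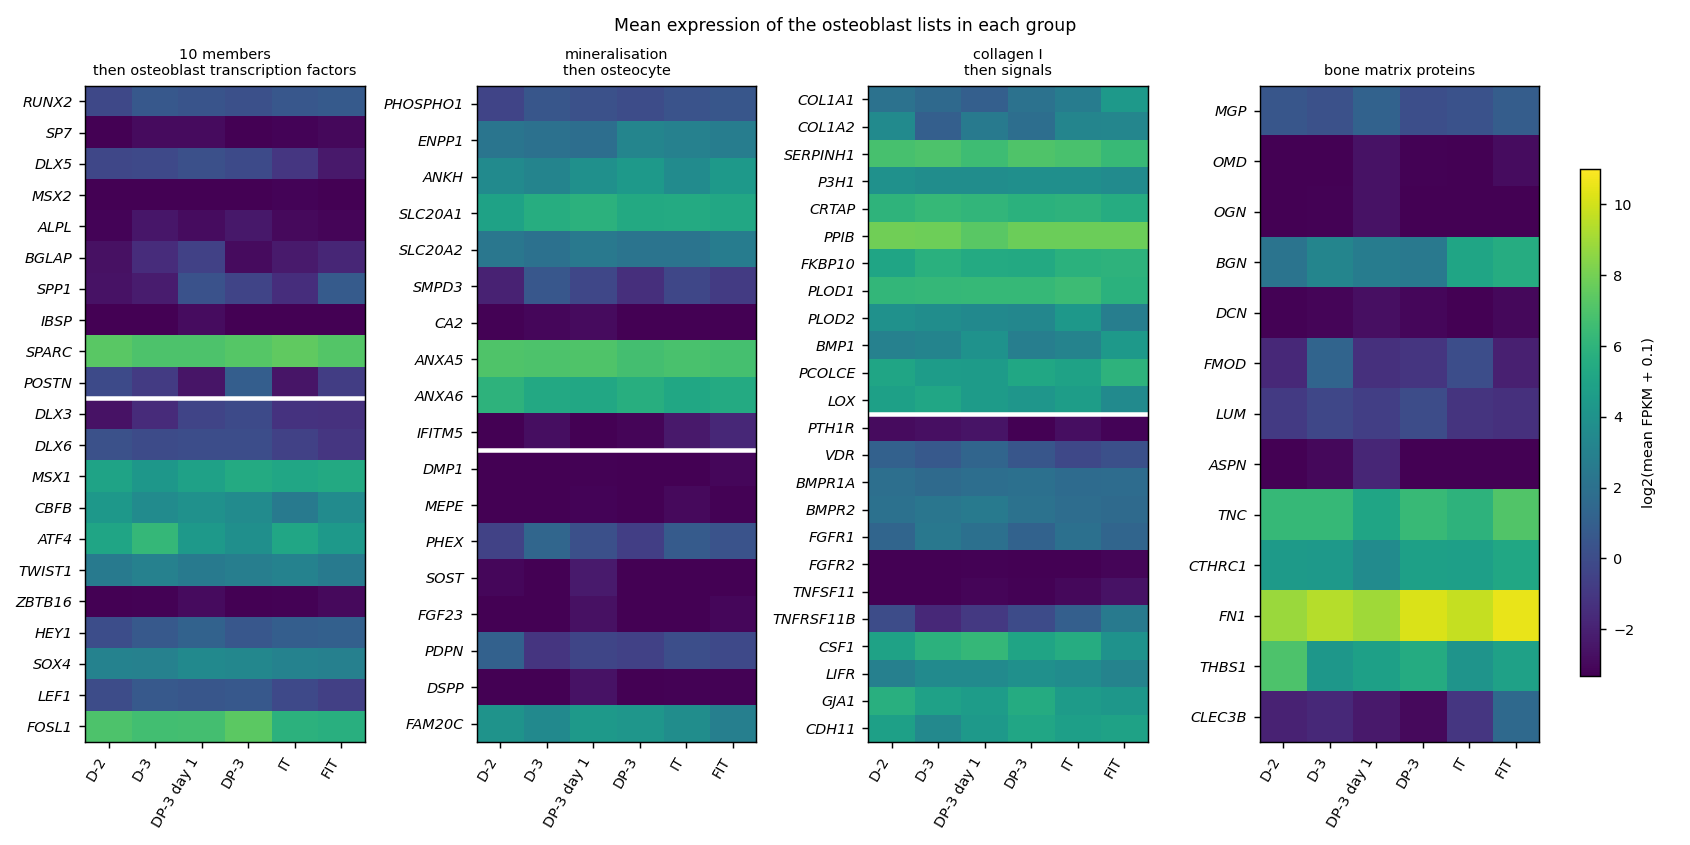
Mean FPKM of each group on the scale log2(mean FPKM + 0.1), with genes in rows, groups in columns and the lists parted by white lines. SPARC and FN1 are bright in all 6 groups, MSX1 lies near the middle of the scale, and SP7, MSX2, ALPL, IBSP, DMP1 and MEPE are dark in all 6. In the collagen I list, COL1A1 in DP-3 day 1 and COL1A2 in D-3 are dim, each at a mean of 1.89 FPKM.

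COL1A1, which encodes the main chain of bone collagen, was highest in FIT, at 21.0, 19.6 and 20.2 FPKM. IT had 2.53, 12 and 4.61, and the group means elsewhere were 4.19 ± 0.606 in D-2, 4.12 ± 0.892 in DP-3, 2.88 ± 0.167 in D-3 and 1.89 ± 0.0979 in DP-3 day 1 (SD, n = 3). FIT lay above every other library. COL1A1 was called lower than FIT in D-2 (log2 fold change -2.12, SE 0.126, adjusted p = 0.000808), D-3 (-2.87, SE 0.142, adjusted p = 0.000273) and DP-3 (-2.16, SE 0.195, adjusted p = 0.00379), and it was called higher in DP-3 than in DP-3 day 1 (1.39, SE 0.186, adjusted p = 0.0038). COL1A2, the partner chain, followed another order, from 11.5 ± 0.418 FPKM in D-2 to 1.89 ± 0.541 in D-3 (log2 fold change -2.86, SE 0.204, adjusted p = 0.000797).

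The shares of all genes called, beside which the counts of these lists are to be read, were 4.82% in DP-3, 6.45% in D-3 and 14.6% in D-2 against FIT, 7.56% in DP-3 against DP-3 day 1 and 18.5% in D-3 against D-2. In D-2 against FIT, 4 of 12 tested collagen I genes were called, 2 higher (LOX at 1.43 and PLOD2 at 1.33 on the log2 scale) and 2 lower. The list had a median log2 fold change of 0.48, beside -0.09 for all genes tested. In D-3 against FIT 5 of 12 were called, 1 higher and 4 lower, and in DP-3 against FIT 2 of 12 were called, both lower. In DP-3 against DP-3 day 1, 3 of 8 tested bone matrix proteins were called, all higher: TNC (log2 fold change 1.48), FN1 (1.47) and CTHRC1 (1.46), beside POSTN. The median of that list was 1.01, beside -0.06 for all genes tested. TNC went from 34.0 ± 1.43 to 78.9 ± 9.95 FPKM and CTHRC1 from 12 ± 0.912 to 27.6 ± 3.45 FPKM (SD, n = 3). Of 9 tested bone matrix proteins, 4 were called in D-2 against FIT, where THBS1 was higher (2.28) and CLEC3B, BGN and FN1 were lower (-3.97, -3.26 and -1.55). In D-3 against FIT FMOD was called higher (3.90) and CLEC3B and BGN lower, and in DP-3 against FIT CLEC3B and BGN were called lower. CLEC3B averaged 0.0275 FPKM in DP-3 and passed the filter there through FIT alone, so that call is no support for a change. In D-3 against D-2 FMOD was higher (3.22) and THBS1 lower (-3.02).

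TNFRSF11B, which encodes the RANKL decoy receptor osteoprotegerin, was 9.48, 6.1 and 2.2 FPKM in FIT and at most 2.48 in any other library. It was called lower than FIT in D-2 (log2 fold change -2.57, adjusted p = 0.0138), in D-3 (-4.82, adjusted p = 0.00666) and in DP-3 (-2.64, adjusted p = 0.0459). The signals called in D-2 against FIT (14.6% of all genes) were 4 of 9 tested, 3 higher and 1 lower, against 1 higher and 1 lower in DP-3 (4.82%) and 1 higher and 2 lower in D-3 (6.45%). Of the osteoblast transcription factors, 2 of 10 tested were called in each comparison of a culture with FIT apart from IT. FOSL1 in D-2 (1.46) and DP-3 (1.81) and LEF1 in D-3 (1.39) and DP-3 (1.52) were higher. DLX3 in D-2 (-2.08, means of 0.0635 FPKM in D-2 and 0.313 in FIT) and MSX1 in D-3 (-1.19) were lower. DLX3 passed the filter on low values through FIT, where it is high, so its call is no support for a change. In DP-3 against DP-3 day 1 and in D-3 against D-2 none of the 10 and 9 tested by edgeR was called. Of 8 tested genes of mineral handling, 1 was called in D-2 against FIT, 2 in D-3 against FIT and none in DP-3 against FIT by edgeR. SMPD3, a sphingomyelinase needed for mineralization, was higher in D-3 than in D-2 (2.84) and than in FIT (1.54), and ENPP1, which makes the mineral inhibitor pyrophosphate, was higher in DP-3 than in DP-3 day 1 (1.61). SMPD3 was also called lower in D-2 than in FIT (-1.34, adjusted p = 0.0491, edgeR). ANKH, of the same list, was called lower in D-3 than in FIT (-1.34). Of 3 tested osteocyte genes, PHEX was higher in D-3 than in D-2 (1.77) and PDPN lower (-2.73), and FAM20C was higher in D-2 (1.32) and DP-3 (1.51) than in FIT. No gene of the 6 lists was called in IT against FIT by edgeR. Of the calls named in these lists, some were kept in 1 of 6 fits that left out 1 library. These were BGN and LEF1 in D-3 and DP-3, MSX1 and SMPD3 in D-3 and TNFRSF11B in DP-3, all against FIT. PLOD2 in D-2 against FIT was another. For DLX3 and SMPD3 in D-2 against FIT these fits are not given here.

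The summed levels of markers of some other cell types were higher in FIT than in the cultured cells, and those of others were not. Of 8 endothelial genes, the sum was 4.31 to 6.59 FPKM in IT and 3.92 to 6.08 in FIT, against at most 2.47 elsewhere. PECAM1 made up 2.93 to 4.46 FPKM of it in FIT, and the endothelial cadherin gene CDH5 was 1.11, 0.516 and 0.343 FPKM in FIT and at most 0.149 outside IT and FIT. Of the other endothelial genes, TEK had means of 0.37 FPKM in FIT and 0.31 in IT and at most 0.101 in the other groups. KDR, CLDN5 and ERG had means under 0.1 FPKM in each group, and VWF and EMCN had lower means in FIT (0.00772 and 0.0758) than in DP-3 (0.0115 and 0.351). Of 8 skeletal muscle genes, the sum was 0.923 to 5.32 FPKM in FIT and at most 0.542 elsewhere, and FIT replicate 3 had 3.61 FPKM of MYH2. Of 7 keratinocyte genes, the sum was 24.0 to 49.3 FPKM in FIT and 17.8 to 29.6 elsewhere, so these overlapped, and KRT14 was 10.4, 1.67 and 0.115 FPKM in FIT and at most 0.336 in any other library, while KRT1 and KRTDAP were at 0 in FIT. KRT5 had a mean of 1.2 FPKM in FIT and of at most 0.0576 in the other groups. The fibroblast sum of 8 genes was 30.3 to 41.3 FPKM in FIT and 8.82 to 25.8 elsewhere, and PDGFRA (21.7 ± 8.13 FPKM) and PDGFRB (9.55 ± 2.89) made up most of it in FIT (SD, n = 3). MFAP5, of the same list, was lower in FIT, at 0.0236 ± 0.0118 FPKM against 0.329 ± 0.0706 in D-2 (SD, n = 3), and was called higher than FIT in each of D-2, DP-3 and D-3, as CD34 was in D-2. MFAP5 passed the filter on low values through the cultures alone, so its calls are no support for a change. CD34 averaged 0.0487 FPKM in FIT, also under the level of the filter. FIT replicate 3 was also the library with 3.94 FPKM of COL3A1, against 0 and 0.0516 in the other FIT libraries, as it was for POSTN. The macrophage sum of 8 genes was 0.765 to 1.51 FPKM in FIT and 1.01 to 3.63 elsewhere. PTPRC, AIF1, C1QA and C1QB had means under 0.1 FPKM in all 6 groups, CSF1R was called higher in D-2 (1.82 ± 0.033 FPKM) than in FIT (0.703 ± 0.0822), and CD163 was called higher in D-3 (0.47 ± 0.228) than in FIT (0.00277 ± 0.00479; SD, n = 3). CD163 passed the filter through D-3 alone, so its call is no support for a change. The part of the markers of these cell types in the FIT values of SPP1, DLX5, POSTN and COL1A1 was not tested. The part of reads from mouse cells in these FIT values was not tested either.

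Markers of the other mesenchymal fates were counted too. SOX9, the cartilage factor, was read at 11.4 to 26.5 FPKM, while SOX6, COL2A1 and COMP had means under 0.1 in each group. PPARG, the fat cell factor, was read at 6.24 to 13.8 FPKM, while ADIPOQ, LPL and LEP had means under 0.1. FABP4, the fatty acid carrier of fat cells, was at 0 in all 3 FIT libraries, at 2.63 ± 0.516 FPKM in D-3 and at 3.58 ± 4.3 in DP-3 (SD, n = 3), and was called higher than FIT in both and in D-2. FABP4 passed the filter on low values through the cultures alone, where it is high, so these calls are no support for a change. In DP-3 against FIT it was tested in 3 fits that left out 1 library and called in 1. CEBPA averaged 5.47 ± 8.07 FPKM in FIT (SD, n = 3), where replicate 3 had 14.8 FPKM and the others 0.975 and 0.641. Of 8 osteoclast genes none reached 1 FPKM in all 6 groups, and their sum was 2.77 to 11.5 FPKM.

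The genes whose levels over the 18 libraries were most like those of the called members were ranked by Pearson correlation of log2(FPKM + 0.1) among 12394 genes with a mean of at least 1 FPKM. For DLX5 they were BDKRB1 (r = 0.904), ID3 (r = 0.9) and SMAD6 (r = 0.888). For POSTN they were COL12A1 (r = 0.907), BZW2 (r = 0.85) and HNRNPC (r = 0.824), and for SPP1 they were DAGLA (r = 0.905), ENTPD5 (r = 0.872) and MOB3A (r = 0.847). The points share group and library depth, and these values are a description.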

How the data were processed

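RNA of 18 libraries in 6 groups of 3 was sequenced as poly(A) RNA with a dUTP stranded kit. The submitters' processing notes name cutadapt 1.9, HISAT2 2.0.4 and StringTie 1.3.4d. The genome build, annotation and the use of strand in counting are not given in the sources used here. The deposited FPKM values were computed by the authors, with StringTie. The deposited estimated counts are the authors' whole numbers, about 4 for each read pair; how they were made is not given. Libraries were grouped by the labels, and 0 columns of sample values stayed unused.

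Counts were tested with edgeR 4.0.16 in R 4.3.3 (TMM scaling, glmQLFit, glmQLFTest), on each comparison's own libraries, for genes whose FPKM reached 0.1 in 3 or more of them, with Benjamini-Hochberg adjustment over all genes tested. Each standard error was back-calculated from the F statistic, as the absolute log2 difference over the root of F. A call needs an adjusted p below 0.05 and at least 2-fold. The 6 groups were tested together with 5 degrees of freedom. DESeq2 1.42.0 and limma 3.58.1 were alternatives, with median-of-ratios scaling, other filters, pseudocounts of 0.1 and 1, a replicate block and each library left out. On simulated counts of D-2 against FIT (19513 genes), edgeR recovered 198 of 200 changed genes with 10 false calls. The changed genes were drawn from those with higher counts and were given changes well beyond 2-fold. All genes and both groups had the same spread. The low counts of DLX5 in FIT and of SPP1 in D-2 lie outside that setting, so the recovery does not carry over to their calls. Library totals of 23721666 to 79082786 estimated counts set the precision, and the limit of detection was set at 12 estimated counts.

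All 10 members are named, as are genes of 14 other lists that were called with a mean of at least 1 FPKM in a group, at most the 4 of largest change per list and comparison, of which examples are given here, with 13 genes set by level and the 3 most alike genes. The members and lists were chosen with earlier results of these data known. Positions were checked against GENCODE 29. A gene planned for the list of transcription factors is not reported here. Marker genes of other cell types that this rule does not name, DLX3, and SMPD3 in D-2 against FIT were chosen after their values were seen.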

Additional observations from a re-analysis of the deposited data

How the results depend on the processing

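POSTN in DP-3 against DP-3 day 1 was called under every alternative run; the other counts of calls rest on few members and moved. Where 1 library was left out, the members called ranged over 0 to 3 in D-2 against FIT, 0 to 2 in D-3 against FIT, 0 to 2 in DP-3 against FIT, 1 to 3 in DP-3 against DP-3 day 1, 0 to 1 in D-3 against D-2 and 1 to 3 over the 6 groups. The genes called ranged from 1755 to 2980, 240 to 1495, 90 to 1438, 744 to 1585 and 2139 to 3519 in those 5 pairs, from 5252 to 6489 over the 6 groups and from 0 to 1 in IT against FIT. Genes called moved by over 1.5 times without D-2 replicate 1 (1759), D-2 replicate 2 (1818) or FIT replicate 1 (1755) in D-2 against FIT, and without D-3 replicate 3 (240), D-3 replicate 1 (347), FIT replicate 2 (632) or FIT replicate 1 (712) in D-3 against FIT. They did so without any library but FIT replicate 3 in DP-3 against FIT (90 to 250), without any DP-3 day 1 library in DP-3 against DP-3 day 1 (744 to 764), and without D-3 replicate 1 (2139) or D-3 replicate 3 (2159) in D-3 against D-2.

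With an FPKM minimum of 1, 0 members and 1602 genes were called in D-2 against FIT, 0 members in D-3 against FIT, 1 member and 900 genes in DP-3 against DP-3 day 1, and 0 members and 1902 genes in D-3 against D-2; this filter leaves fewer genes to test. With limma on log2(FPKM + 1), 0 members and 905 genes were called in D-2 against FIT, 0 and 739 in D-3 against FIT, 438 genes in DP-3 against FIT, 1 and 494 in DP-3 against DP-3 day 1, 0 and 1178 in D-3 against D-2, and 2682 genes over the 6 groups. With limma on log2(FPKM + 0.1), 1 member was called in DP-3 against FIT and 0 in D-3 against D-2. DESeq2 called 2 members and 2498 genes in D-3 against FIT, 1 and 1896 in DP-3 against FIT, and 661 genes in IT against FIT. One fit of all 18 libraries called 2 members in D-3 against FIT, 1 member and 1619 genes in DP-3 against FIT, 553 genes in IT against FIT and 0 members in D-3 against D-2. Without a filter, 1 member was called in DP-3 against FIT and 53 genes in IT against FIT. The cause was not tested.

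The mean of its group was taken from each gene's level, and these deviations were correlated between same-numbered samples of the compared groups. The correlations ran from -0.0448 to 0.0815, none over 0.1, so the numbers were not read as pairs. They do not measure how alike the levels of whole libraries were. With the replicate block, 1 member was called in D-2 against FIT, 0 members and 904 genes in D-3 against FIT, 164 genes in DP-3 against FIT, and 1 member and 938 genes in DP-3 against DP-3 day 1.

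None of the members called by edgeR changed sign. POSTN in D-3 against FIT was 0.76 and 0.07 with limma on the log2(FPKM + 0.1) and log2(FPKM + 1) scales and 1.53 with the replicate block. RUNX2 in DP-3 against DP-3 day 1 was -0.06 with the FPKM minimum of 1, and -0.20 and -0.12 with limma on these scales. DLX5 was 0.03 there without a filter, and 0.00 and 0.02 in D-3 against D-2 with limma. With 1 library left out, the log2 fold changes against FIT ranged from -0.77 to 0.18 (RUNX2), -0.27 to 0.68 (BGLAP) and -0.70 to 2.52 (POSTN) in D-3, from -2.26 to 0.42 (SPP1) in DP-3, and from -0.75 to 0.17 (RUNX2) and -0.21 to 0.59 (SPARC) in IT; those of DP-3 against DP-3 day 1 from -0.45 to 0.30 (RUNX2) and -0.45 to 0.22 (DLX5); and that of DLX5 in D-3 against D-2 from -0.33 to 0.21. Depth limits BGLAP, ALPL, SP7, IBSP and MSX2, at or under 12 estimated counts in 11 to 18 libraries.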
